A study of Mus musculus with 5 samples.

Results

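The sequence examined lies 1 to 10 Mb from the Cebpa promoter on the telomeric side of chromosome 7, from position 36118001 to 45118000 of mm10. Its members were chosen by position alone and are all windows of 2000 bp that start from 36118001 to 45116001. There are 4500 of them among the 72721 windows of chromosome 7, and they form 90 bins of 100 kb. At least 1 of the 4 libraries listed 1391 of these windows, out of 29870 windows listed anywhere in the genome.

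3T3-L1 is a line of mouse embryo cells that can be turned into fat cells in culture. 3T3-L1-PRE denotes the undifferentiated preadipocytes. 3T3-L1-AD denotes the same line at day 7 after adipogenic induction with a cocktail of IBMX, dexamethasone and insulin. They are called preadipocytes and adipocytes from here on. Each state was sampled with 2 libraries of 4C-seq, in which chromatin is cross-linked, cut with DpnII, ligated and cut again with NlaIII, and the fragments joined to the Cebpa promoter are amplified and sequenced. Pairs of values given for a state are those of replicates 1 and 2, in this order. The labels do not state that replicates came from separate cultures, so p-values measure only the spread between these libraries, which may be technical. Contact reads hold no expression, so the labelled states were not checked against marker genes.

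Cebpa encodes a transcription factor that drives the terminal steps of fat cell differentiation. In the nucleus, contact frequency between 2 sites of a chromosome falls with the distance between them, and active, gene-rich chromatin tends to meet other active chromatin. Beyond the near neighbourhood of a promoter, 4C-seq therefore samples a field of mostly rare contacts. Whether any contact of the stretch is a specific loop was not tested. The telomeric field of Cebpa opens with broad gene-poor sequence around Tshz3 and Zfp536, passes a small cluster of genes around Ccne1, crosses long repeated sequence with vomeronasal receptor and zinc finger genes, and ends in dense sequence with the kallikrein genes and many housekeeping genes.

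The depth behind the values was set by the reads on chromosome 7, which were 7667263 and 13715191 in preadipocytes and 4901863 and 7549822 in adipocytes. A window that a library did not list was counted as 0 reads. The lowest listed counts in the stretch were 13 and 11 reads in preadipocytes and 2 reads in both adipocyte libraries, so a common minimum of 13 reads was also applied. Intervals are 95% Wilson intervals and cover counting error only, because amplified copies were not told apart by molecular identifiers.

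Fewer windows of the stretch were listed in adipocytes than in preadipocytes. The preadipocyte libraries listed 391 and 1128 windows, and the adipocyte libraries listed 73 and 189. As shares of the 4500 windows these were 8.69% (7.90% to 9.55%) and 25.1% (23.8% to 26.4%) in preadipocytes, and 1.62% (1.29% to 2.03%) and 4.20% (3.65% to 4.83%) in adipocytes. Both adipocyte libraries lay below both preadipocyte libraries, and the replicates of a state also lay apart from each other. The log2 ratio of the state means was -2.54 (p = 0.333 in a two-sided exact permutation test, which cannot go lower with 2 libraries per state). With the common minimum of 13 reads, 391 and 1117 windows remained in preadipocytes and 70 and 77 in adipocytes. With a minimum of 100 reads there were 290 and 806 against 49 and 60.

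Lists of equal length were also compared. They remove any difference in list length by construction, so only the share of a list that fell in the stretch could differ. When the 1043 windows of chromosome 7 with the most reads were taken from every library, 85 and 69 of them fell in the stretch in preadipocytes and 73 and 83 in adipocytes. The log2 ratio was then 0.0186. Of the full lists of chromosome 7, the stretch held 10.9% and 11.9% in preadipocytes and 7.00% and 9.23% in adipocytes, so on this base the states lay apart. After thinning each library to 6535263 reads, with the minimum of 13 reads, 378 and 990 windows were left in preadipocytes and 70 and 75 in adipocytes.

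The reads were spread differently from the windows. The stretch held 304597 and 549044 reads in preadipocytes and 94013 and 239774 reads in adipocytes. These were 3.97% and 4.00% of the chromosome 7 reads in preadipocytes, and 1.92% and 3.18% in adipocytes. The preadipocyte shares lay close together and above both adipocyte shares, and the adipocyte shares were the farther apart. The log2 ratio of the means was -0.65 (two-sided exact permutation test, p = 0.333). Of the reads more than 1 Mb from the viewpoint, the stretch took 14.7% and 14.9% in preadipocytes and 10.9% and 19.995% in adipocytes. On this base the states overlapped and the log2 ratio was 0.0653.

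Adipocyte reads were concentrated in few windows. The top 10 windows of each library by reads accounted for 13.9% and 5.59% of the reads of the stretch in preadipocytes, and 58.7% and 46.9% in adipocytes. Without these windows the log2 ratio of the read shares was -1.52. A listed neighbour on at least 1 side was found for 42.5% and 65.9% of the listed windows in preadipocytes, and for 20.5% and 32.8% in adipocytes. More of the adipocyte windows stood alone, but a shorter list offers fewer neighbours. These shares therefore do not compare the clustering of contacts between the states. None of the listed windows had a deposited q-value of 0.05 or less in any library, and the lowest deposited q-value in the stretch was 1 in all 4.

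The 3T3-L1-AD replicate 2 library differed from the others in its low counts. It listed 112 windows of the stretch with under 13 reads, which is 59.3% of its list, against 0 and 11 such windows in preadipocytes and 3 in 3T3-L1-AD replicate 1. Its median listed window held 5 reads, whereas the medians were 379 and 325 reads in preadipocytes and 305 in 3T3-L1-AD replicate 1. With the minimum of 13 reads its median was 1934 reads, the highest of the 4 libraries.

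Most of these low-count windows recurred in the list of 3T3-L1-PRE replicate 2. Of the 112 windows, 100 (89.3%) were also listed there, where they held a median of 1053.5 reads, compared with 325 reads over all its windows in the stretch. In 3T3-L1-PRE replicate 1 only 21 of them (18.8%) were listed, and in 3T3-L1-AD replicate 1 only 4 (3.57%). The share rose with the reads in 3T3-L1-PRE replicate 2. Of its 322 windows with under 100 reads, 0.311% were listed with under 13 reads in 3T3-L1-AD replicate 2. The share was 6.94% for the 634 windows with 100 to under 1000 reads and 32.0% for the 172 windows with 1000 reads or more. Over chromosome 7 as a whole, 87.9% of the 1087 low-count windows of this library were listed in 3T3-L1-PRE replicate 2. Whether reads were carried over between these libraries was not tested, and it bears on each value of 3T3-L1-AD replicate 2 without the minimum of 13 reads and on its overlap with 3T3-L1-PRE replicate 2.

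In the stretch, windows were seldom the same between adipocyte replicates, whose lists were also short. The preadipocyte replicates shared 197 windows, 50.4% of the list of replicate 1 and 17.5% of that of replicate 2. The adipocyte replicates shared 7 windows, 9.59% and 3.70% of their lists. With the minimum of 13 reads the shared windows numbered 196 and 3. Across states, 3T3-L1-AD replicate 2 shared 144 windows of the stretch with 3T3-L1-PRE replicate 2. These were 76.2% of the adipocyte list and 12.8% of the preadipocyte list, compared with 76.0% and 16.4% over chromosome 7. At the minimum of 13 reads, 44 windows of the stretch were shared, or 57.1% and 3.94%. Where a window was shared by the preadipocyte replicates, the larger read count was a median of 4.39 times the smaller. In equal lists of 1043 windows of chromosome 7, the replicates shared 9 windows of the stretch in preadipocytes and 3 in adipocytes. Of the 1391 windows listed in any library, 1046 were listed in 1 library, 302 in 2, 41 in 3 and 2 in all 4.

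In preadipocytes, listed windows were most numerous at both ends of the stretch and fewer between them. The 1-Mb step nearest to the viewpoint, which carries Tshz3, held 86 and 200 listed windows in preadipocytes and 11 and 39 in adipocytes. The next step, with Zfp536, Uri1 and Ccne1, held 86 and 237 windows in preadipocytes and 15 and 29 in adipocytes. From 3 to 8 Mb the lists were shorter in both preadipocyte libraries and in 3T3-L1-AD replicate 1, though not in an even decline. 3T3-L1-AD replicate 2 still listed 32 windows at 3 to 4 Mb. With the minimum of 13 reads the step at 3 to 4 Mb was its longest, with 19 windows. At 7 to 8 Mb the lists held 4 and 33 windows in preadipocytes and 5 and 4 in adipocytes. This step of vomeronasal receptor and zinc finger genes had the fewest windows in both preadipocyte libraries and in 3T3-L1-AD replicate 2. In 3T3-L1-AD replicate 1 the fewest, 4 windows, lay at 4 to 5 Mb.

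The lists grew again towards the far end. At 8 to 9 Mb, where the kallikrein and Siglec genes lie, 50 and 163 windows were listed in preadipocytes and 10 and 16 in adipocytes. At 9 to 10 Mb, with 52 protein-coding gene starts, there were 72 and 218 windows in preadipocytes and 9 and 38 in adipocytes. In preadipocytes this was close to the counts at 1 to 2 Mb, although the distance from the viewpoint was several times larger. The adipocyte replicates differed from each other, since 3T3-L1-AD replicate 2 returned to its level at 1 to 2 Mb while replicate 1 showed a flatter profile. With the minimum of 13 reads, 3T3-L1-AD replicate 2 held 11 windows at 1 to 2 Mb and 19 at 3 to 4 Mb, its longest step. It then held 1 window at 7 to 8 Mb and 16 at 9 to 10 Mb.

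In reads the same outline was seen in preadipocytes. Per 1000000 chromosome 7 reads, counted without the window with the most reads, the step at 1 to 2 Mb held 9207 and 7574 reads in preadipocytes and 2866 and 7134 in adipocytes. At 7 to 8 Mb the values were 195.8 and 737.8 in preadipocytes and 82.4 and 4.83 in adipocytes. At 9 to 10 Mb they were 7456 and 7708 in preadipocytes and 2242 and 5805 in adipocytes. Both adipocyte libraries lay below both preadipocyte libraries in these steps, as in 5 of the 9 steps in all, while the states overlapped in 3. At 6 to 7 Mb the order was turned, with 513 and 997.6 reads in preadipocytes and 1748 and 1300 in adipocytes. Listed windows in this step went the other way, with 9 and 48 in preadipocytes and 6 and 8 in adipocytes. In 3T3-L1-AD replicate 2, the 2 windows with 13 reads or more held 9390 of its 9421 unscaled reads there. Single adipocyte libraries were the highest at 3 to 4 Mb (3T3-L1-AD replicate 2, 7000 against 5444 and 4436 in preadipocytes), at 4 to 5 Mb (3T3-L1-AD replicate 1, 3840 against 3226 and 2793) and at 5 to 6 Mb (3T3-L1-AD replicate 2, 5111 against 1263 and 2639). A single window held 13600 of the 18135 unscaled reads of 3T3-L1-AD replicate 1 at 4 to 5 Mb. Another held 20545 of the 37050 of 3T3-L1-AD replicate 2 at 5 to 6 Mb.

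In listed windows, the stretch had no sharp edge in these data. In the 100 kb just outside its near border, 6 and 25 windows were listed in preadipocytes and 3 and 4 in adipocytes, and just inside it 4 and 14 against 1 and 4. At the far border, 4 and 14 windows against 1 and 2 lay just inside, and 7 and 9 against 1 and 1 just outside. Reads outside the near border were 1679 and 8690 in preadipocytes and 4086 and 6331 in adipocytes. Inside it they were 2341 and 6825 against 18 and 9445. Inside the far border there were 5375 and 5147 reads against 75 and 901, and outside it 4945 and 1413 against 1395 and 5959. In reads, single libraries thus changed steeply at a border.

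The sequence that could be mapped also varied along the stretch. DpnII cuts at GATC, and a fragment end was taken as unique where its outer 50 bases occur once in the genome. The stretch holds 47030 fragment ends, of which 36063 (76.7%) are unique, and 332 of its windows hold no unique end. The step at 3 to 4 Mb had the fewest unique ends, 1790, compared with 4709 at 2 to 3 Mb. The step at 7 to 8 Mb had 3648 and the step at 5 to 6 Mb had 4491. Per 1000 unique ends, the step at 3 to 4 Mb held 19.0 and 34.1 listed windows in preadipocytes and 2.79 and 17.9 in adipocytes. At 1 to 2 Mb these values were 19.5 and 45.3 against 2.49 and 8.83. On this base the step at 3 to 4 Mb was not low in 3T3-L1-PRE replicate 1 or in adipocytes. It was the highest step of 3T3-L1-AD replicate 2. The part of unique ends in the length of the lists was not tested. Base composition also ran along the stretch, with GC contents of 45.7% at 2 to 3 Mb, 39.4% at 6 to 7 Mb and 50.4% at 9 to 10 Mb.

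Per 100-kb bin, the number of listed windows had a median of 2.5 and 11 in preadipocytes and of 0 and 1 in adipocytes. The highest bin held 26 and 40 windows in preadipocytes and 5 and 22 in adipocytes. At least 1 window was listed in 67 and 78 of the 90 bins in preadipocytes and in 40 and 60 bins in adipocytes, and in 39 and 37 of the bins in adipocytes with the minimum of 13 reads. Reads per bin had medians of 1278.5 and 4232 in preadipocytes and of 0 and 6 in adipocytes. Bins thus ranged from empty to 31293 and 46447 reads in preadipocytes, and to 13716 and 34776 reads in adipocytes.

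The bin with the most listed windows in both states was 38118001 to 38218000, about 3 Mb from the viewpoint. It lies just beyond Ccne1 and holds 1600014C10Rik, the mouse counterpart of human C19orf12, and an end of Plekhf1. It held 26 and 40 windows in preadipocytes and 5 and 22 in adipocytes. Its reads were 31293 and 46447 in preadipocytes and 6792 and 34776 in adipocytes. Per 1000000 chromosome 7 reads without the top window these were 4166 and 3447 in preadipocytes, and 1438 and 4797 in adipocytes. The adipocyte replicates lay on both sides of the preadipocyte values, so the states overlapped in this bin (edgeR log2 fold change of -0.29, SE 1.33, FDR 0.934). 3T3-L1-AD replicate 2 still listed 14 windows there at the minimum of 13 reads, its highest bin.

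The neighbouring bins were also among the richest. In the bin at 38018001, with the Ccne1 gene body, 19 and 37 windows were listed in preadipocytes and 5 in each adipocyte library. In the bin at 37918001, which covers most of Uri1, 14 and 33 windows were listed in preadipocytes and 1 and 2 in adipocytes. On the far side, the bin at 38218001 with Pop4 held 8 and 20 windows in preadipocytes and 0 and 10 in adipocytes. Preadipocytes thus had a run of well-filled bins over this gene cluster, and 3T3-L1-AD replicate 2 shared its far end while 3T3-L1-AD replicate 1 did not.

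Among adipocyte libraries the next bin was at 44818001 with 12 windows, and those at 36718001, 38018001 and 38218001 tied with 10. The bin at 44818001, with Akt1s1 and Med25, held 3 and 23 windows in preadipocytes and 1 and 11 in adipocytes. The bin at 36718001, over Tshz3, held 9 and 26 windows in preadipocytes and 1 and 9 in adipocytes. Almost all adipocyte windows of both bins came from replicate 2. Of the 9 windows at Tshz3, 1 had 13 reads or more, whereas 6 of the 11 windows at 44818001 did. The bin at 38018001 kept 5 and 3 adipocyte windows with this minimum.

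No library listed a window in 10 of the 90 bins. Of these, 7 form a continuous run from 38418001 to 39118000, 2 follow from 39218001 to 39418000, and the last is at 43018001. They hold a median of 95.5 unique fragment ends each (2 to 251), compared with 440 (176 to 592) in the other 80 bins. Of their fragment ends 18.7% are unique and 71.1% occur 2 to 20 times in the genome, whereas 83.8% are unique in the other bins. The empty bins thus had fewer mappable ends in the median, but the ranges overlapped. The empty bin at 43018001 has 251 unique ends, whereas the bins at 42718001 and 39118001 have 176 and 189 and did hold a listed window. The part of mappability in the empty bins was not tested. A fragment end of the bin at 38418001, at chr7:38419264-38419313 of mm10 on the plus strand, is shown because its 50 bases occur 4 times in the genome. Capitals mark the DpnII site.
repeated fragment end: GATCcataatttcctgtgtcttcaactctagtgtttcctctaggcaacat

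Bin profiles were most alike between the preadipocyte libraries. Over the 90 bins, Spearman's rho of listed windows was 0.875 between the preadipocyte replicates and 0.490 between the adipocyte replicates. Between states it was 0.515 and 0.723 for 3T3-L1-PRE replicate 1 with 3T3-L1-AD replicates 1 and 2, and 0.536 and 0.794 for 3T3-L1-PRE replicate 2. With the minimum of 13 reads the value was 0.876 between the preadipocyte replicates and 0.363 between the adipocyte replicates, and between states it was 0.487 and 0.554 for 3T3-L1-PRE replicate 1 and 0.502 and 0.642 for 3T3-L1-PRE replicate 2, in the same order. Each adipocyte library had higher values with both preadipocyte libraries than with the other adipocyte library, with and without the minimum. The bins of all libraries share their mappable ends and base composition, neighbouring bins are not independent, and the longer lists give steadier counts.

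Listed windows went with base composition more closely than with gene starts. Over the same 90 bins, rho with GC content was 0.712 and 0.759 in preadipocytes and 0.389 and 0.605 in adipocytes. For unique fragment ends it was 0.496 and 0.578 against 0.389 and 0.460, and for protein-coding gene starts 0.145 and 0.203 against 0.241 and 0.107. In adipocytes, rho with GC content was 0.366 and 0.484 at the minimum of 13 reads. GC content was thus the closest of these 3 features in both preadipocyte libraries and in 3T3-L1-AD replicate 2, and its part in the results was not tested.

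Gene-dense bins were compared with gene-free bins of the stretch. Of the 90 bins, 16 hold 3 or more protein-coding gene starts, 45 hold none and 29 hold 1 or 2. Listed windows per 1000 unique ends were 13.3 and 41.7 in the gene-dense bins of preadipocytes and 1.97 and 5.92 in those of adipocytes. In the gene-free bins they were 10.5 and 31.4 in preadipocytes and 1.66 and 4.75 in adipocytes. The gene-dense bins were the higher in all 4 libraries, by a mean log2 ratio of 0.33 (two-sided exact sign-flip permutation test, p = 0.125, the smallest that 4 libraries allow). At the minimum of 13 reads the ratios were 0.35 and 0.41 in preadipocytes and 0.09 and 0.75 in adipocytes. Bins with 1 or 2 gene starts held 9.81 and 24.3 in preadipocytes and 2.58 and 5.51 in adipocytes.

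The gene classes were not spread evenly over the stretch. All 16 gene-dense bins lie more than 5 Mb from the viewpoint, and 15 of them beyond 8 Mb. Beyond 5 Mb the gene-free bins, of which 12 of 13 lie at 5 to 8 Mb, held 2.87 and 17.4 listed windows per 1000 unique ends in preadipocytes and 1.08 and 2.15 in adipocytes, and the mean log2 ratio of dense over free bins was 1.45 (exact sign-flip permutation test, p = 0.125). Distance and gene content therefore cannot be told apart in these bins. The gene-free bins at 1 to 3 Mb held 17.1 and 46.5 in preadipocytes and 2.35 and 7.69 in adipocytes, above the 14.1 and 43.6 and the 2.09 and 6.13 of the gene-dense bins beyond 8 Mb. This comparison gave a mean log2 ratio of -0.22 (p = 0.125 in the same exact test). With the minimum of 13 reads, 3T3-L1-AD replicate 2 listed 21 windows in each of these sets. The gene-dense set has 7180 unique ends and the gene-free set 7670, so the order was turned in this library. Both comparisons by distance were chosen after the data were seen. In reads per unique end the ratio of all gene-dense over all gene-free bins was -0.0710, with 3T3-L1-AD replicate 1 at -1.37 and the other libraries from 0.32 to 0.44.

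The centromeric side at the same distance gave the closest comparison. From 25116001 to 34116000, 410 and 1158 windows were listed in preadipocytes and 83 and 193 in adipocytes. The log2 ratios of telomeric over centromeric windows were -0.07 and -0.04 in preadipocytes and -0.19 and -0.03 in adipocytes. The mean was -0.08 (two-sided exact sign-flip permutation test, p = 0.125). With the minimum of 13 reads the sign was not shared by all libraries, since 3T3-L1-AD replicate 2 was at 0.04, and the mean was -0.05 (p = 0.375 in the same exact test). In reads the ratios were -0.06 and 0.00 in preadipocytes and -0.57 and 0.77 in adipocytes, with a mean of 0.0360, and the adipocyte replicates lay on opposite sides of equality. The centromeric side has 237 protein-coding gene starts against 127 on the telomeric side, and 34670 unique fragment ends against 36063.

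Windows were assigned to a gene where they overlapped its body or the 5 kb on both sides, so that neighbouring genes can share windows. Of the 13 protein-coding genes at 1 to 6 Mb, 6 had a listed window in every library, as did 17 (13.4%) of all 127 genes of the stretch. Zfp536, which encodes a zinc finger repressor of neuronal differentiation, had 18 and 58 listed windows in preadipocytes and 4 and 6 in adipocytes. Tshz3, a teashirt family transcription factor gene, had 11 and 26 against 1 and 6, or 1 and 1 in adipocytes with the minimum of 13 reads. For both genes each adipocyte library was below each preadipocyte library in windows, but Zfp536 held 785.2 and 1683 reads per 1000000 chromosome 7 reads in preadipocytes and 2892 and 418.2 in adipocytes, so the states overlapped in reads.

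Uri1, which encodes a prefoldin-like chaperone, had 15 and 23 windows in preadipocytes and 2 in each adipocyte library. Ccne1, the gene of the S-phase cyclin E1, had 4 and 10 windows against 2 and 1. Plekhf1, which encodes an endosomal lipid-binding protein, had 7 and 8 against 1 and 3. Both adipocyte libraries had fewer windows than both preadipocyte libraries at these genes, as at 56 (44.1%) of all 127 genes. In reads per 1000000 chromosome 7 reads, counted as above, the states overlapped at Uri1, with 1211 and 996 in preadipocytes and 508.6 and 1057 in adipocytes. They also overlapped at Plekhf1, with 1648 and 340.2 against 192.7 and 897.3, and lay apart at Ccne1, with 474.2 and 602.9 against 93.2 and 64.6. Pop4, a subunit gene of the RNase P and RNase MRP complexes, had 1 and 7 windows in preadipocytes and 0 and 4 in adipocytes. On the same scale it held 167.2 and 327.1 reads against 0 and 1412, so the states overlapped. Vstm2b, the farthest of these genes, was listed in 3T3-L1-PRE replicate 1 alone, with 2 windows and 89.9 reads on this scale.

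The regulators and metabolic genes of the far end were looked up in the same way. As a base, 67.7% and 89.8% of all 127 protein-coding genes of the stretch had a listed window in preadipocytes, and 23.6% and 40.9% in adipocytes. Myh14, a nonmuscle myosin heavy chain gene, and Vrk3, a gene of the vaccinia-related kinase family, were listed in all libraries. Myh14 had 4 and 14 windows in preadipocytes and 1 and 2 in adipocytes, and Vrk3 had 5 and 16 against 1 and 2. Akt1s1, which encodes an inhibitory partner of mTOR, had 1 and 6 windows against 0 and 2. The adipocyte windows of these genes were fewer than those of 3T3-L1-PRE replicate 2 in both libraries.

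The other genes described from this group had no adipocyte window. Nr1h2, the gene of the oxysterol receptor LXR beta, had 1 and 5 windows in preadipocytes, and Atf5, a stress-responsive bZIP factor gene, had 2 and 5. Irf3, which encodes a transcription factor of the antiviral response, had 4 and 1, and Etfb, the gene of a mitochondrial electron transfer flavoprotein subunit, had 2 and 4. Prmt1, an arginine methyltransferase gene, and Rras, a small GTPase gene, were listed in 3T3-L1-PRE replicate 2 alone, with 6 and 3 windows. The preadipocyte replicates differed for several of these genes, and 3T3-L1-PRE replicate 2 had the longest list.

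Pold1, Nup62 and Med25 are genes of the stretch that every cell uses. Pold1, the catalytic subunit gene of DNA polymerase delta, had 3 and 9 windows in preadipocytes and 1 in each adipocyte library. Nup62, a nuclear pore gene, had 2 and 6 against 0 and 0. Med25, a Mediator subunit gene, had 1 and 6 windows in preadipocytes and 0 and 4 in adipocytes, and on the scale of chromosome 7 reads its 1276 in 3T3-L1-AD replicate 2 exceeded the 446 and 376.7 of preadipocytes. These genes thus did not share a single pattern.

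The gene families of the stretch were described by counts. Of the 26 kallikrein genes, which encode secreted serine proteases, 18 and 23 had a listed window in preadipocytes and 1 and 6 in adipocytes. The 4 genes of the Siglec lectins with Cd33 had 3 and 4 such members in preadipocytes and 1 in each adipocyte library. Of the 7 vomeronasal receptor genes of the Vmn2r family, 3 and 6 had a window in preadipocytes and 1 in each adipocyte library. The 13 genes named as zinc finger proteins gave 6 and 12 against 5 and 4. Over all 127 protein-coding genes of the stretch these numbers were 86 and 114 in preadipocytes and 30 and 52 in adipocytes. At the minimum of 13 reads the adipocyte numbers were 27 and 32 over all genes, 1 and 3 for kallikreins, 1 and 0 for Vmn2r genes and 5 and 2 for zinc finger genes. In each family 3T3-L1-PRE replicate 2 had the most genes with a window. The adipocyte replicates had no common order, with replicate 2 higher for kallikreins and replicate 1 for zinc finger genes. Genes of a family lie side by side and share windows.

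Promoters were also looked up, from 250 bases before to 50 bases after each start in RefSeq (GRCm38.p6). Of the 211 promoters in the stretch, 33 (15.6%) and 82 (38.9%) lay in a listed window in preadipocytes, and 5 (2.37%) and 11 (5.21%) in adipocytes. The share of all windows listed was 8.69%, 25.1%, 1.62% and 4.20% in the same order, but 35 of the promoters span 2 windows, so the shares are not on the same base. With at least 13 reads in a window, 33 and 82 promoters were left in preadipocytes and 4 and 2 in adipocytes. For 3T3-L1-AD replicate 2 this was 0.948% of the promoters, against 1.71% of all windows, so that the order of these shares was turned in this library. A DpnII site, GATC, is held by 55.5% of these promoters and by 48.0% of the 32851 promoters of the genome. Promoters of a gene can share a window, so no test was made.

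Single windows with very high counts differed from library to library. In 3T3-L1-PRE replicate 1 the highest window was 37218001 to 37220000, which is intergenic and lies 252135 bp from Zfp536, with 5420 reads and no listing elsewhere. In 3T3-L1-AD replicate 1 it was 39640001 to 39642000, an intergenic window nearest to Zfp619, with 13600 reads and again no listing elsewhere. In 3T3-L1-AD replicate 2 it was 40230001 to 40232000, intergenic and 666328 bp from Vstm2b, with 20545 reads, against 540 reads in 3T3-L1-PRE replicate 2 and none listed in the other libraries. None of these 3 peaks was shared by the replicate of its state. In 3T3-L1-AD replicate 1 the single window held 14.5% of the reads of the stretch.

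A pair of windows was listed in all 4 libraries, and 1 of them with at least 13 reads in each. Both lie in the best-filled bin. The window 38126001 to 38128000 is intergenic, 18467 bp from Ccne1, and held 1103 and 1063 reads in preadipocytes and 3888 and 257 reads in adipocytes. The window 38194001 to 38196000 lies in 1600014C10Rik and its antisense transcript D530033B14Rik, and covers coding and untranslated exon sequence. It held 3260 and 4620 reads in preadipocytes, the latter being the most of any window of the stretch in that library, and 46 and 2 reads in adipocytes. The states overlapped in the first of these windows and lay apart in the other. Neither passed the edgeR test, with log2 fold changes of 2.03 (SE 3.36, FDR 0.645) and -6.22 (SE 4.24, FDR 0.198).

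The sequence around a DpnII site of each of these windows is shown to place the contacts, with 38 bases on both sides of the site, on the plus strand of mm10. Capitals mark every GATC. The sites are those nearest to the middle of the window with unique ends on both sides and outside exons, and read counts per window do not tell which of the sites in a window was joined to the promoter. The viewpoint is shown by the end of the reading primer that matches the genome, at chr7:35117558-35117577. The other sequences lie at chr7:37219032-37219111, chr7:39641390-39641469, chr7:40230914-40230993, chr7:38126844-38126923, all intergenic, and at chr7:38194416-38194495, in introns of 1600014C10Rik and D530033B14Rik.
reading primer, genome-matching end: atctggcccagagagcGATC
window 37218001: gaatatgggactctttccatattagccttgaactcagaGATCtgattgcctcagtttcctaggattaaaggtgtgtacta
window 39640001: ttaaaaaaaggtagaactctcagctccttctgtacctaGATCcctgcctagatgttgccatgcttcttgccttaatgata
window 40230001: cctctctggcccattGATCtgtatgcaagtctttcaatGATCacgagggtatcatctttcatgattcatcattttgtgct
window 38126001: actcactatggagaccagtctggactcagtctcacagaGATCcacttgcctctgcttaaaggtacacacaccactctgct
window 38194001: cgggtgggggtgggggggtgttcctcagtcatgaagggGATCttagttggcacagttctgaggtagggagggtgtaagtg

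Other windows near 1600014C10Rik were also high in single libraries. The window 38184001 to 38186000 held 118 and 2838 reads in preadipocytes and 0 and 11612 reads in adipocytes. The window 38210001 to 38212000 held 3438 and 320 reads in preadipocytes and 0 and 1039 in adipocytes. Over the gene with its flanks there were 8 and 10 windows in preadipocytes and 2 and 6 in adipocytes, with 7748 and 19230 reads against 1854 and 11695. Per 1000000 chromosome 7 reads without the top window these were 1032 and 1427 against 392.5 and 1613, so the adipocyte replicates lay on both sides of the preadipocyte values. These windows were named after their values were seen.

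Differences between states were tested per 100-kb bin with edgeR's quasi-likelihood test. Of the 90 bins, 72 passed a filter of 10 reads in 2 or more libraries and were tested together with all such bins of the genome. No bin of the stretch passed an FDR of 0.01, compared with 0.0300% of the 3329 bins tested in the genome. At an unadjusted p under 0.05 there were 3 bins, 4.17%, compared with 19.1% of all bins tested, and the lowest FDR was 0.235. DESeq2 called 15 of the 72 bins (20.8%), all lower in adipocytes, compared with 12.3% of all bins tested in both directions and 10.8% in this direction. All 15 had at least 10 reads in both preadipocyte libraries, and 14 of them in no adipocyte library, so they passed the filter through preadipocytes and their number and direction are a description.

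Reads scaled to chromosome 7 reads placed both adipocyte libraries under both preadipocyte libraries in 39 of the 72 bins, 54.2%, compared with 42.6% of all bins tested. The reverse was found in 0 bins of the stretch, compared with 5.38% of all bins tested. The median log2 fold change was -2.37 in the stretch and -2.80 over all bins tested. A bin could pass the filter through the preadipocyte libraries alone, so the counts and medians over the tested bins are a description.

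Windows that both replicates of a state listed were tested as sites across the genome, at 1998 sites, of which 202 lie in the stretch. Of these, 197 were listed in both preadipocyte libraries, 7 in both adipocyte libraries and 2 in all. edgeR called 26 of them at an FDR of 0.01, all lower in adipocytes, or 12.9%, compared with 13.7% of all sites in both directions and 6.51% in this direction. A fit with a replicate block called 0 of the 202 sites, and 8 of all 1998. All 26 were unlisted in both adipocyte libraries, and were chosen as sites through preadipocytes, so that they had to differ and their number is a description. At an unadjusted p under 0.05 there were 173 sites, 85.6%, compared with 64.0% of all sites. DESeq2 called 178, all lower, compared with 69.0% of all sites in both directions and 56.6% in this one.

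The called sites were the weak sites of the preadipocytes. Their reads summed over both preadipocyte libraries had a median of 146.5 (59 to 265), compared with 1247 (149 to 7880) at the 176 sites not called. Of the latter, 133 were unlisted in both adipocyte libraries as well. Against a floor of 3 reads per library, scaled reads were at least 6.14-fold to 27.6-fold lower in adipocytes at the called sites, and at least 22.1-fold to 753-fold lower at these 133 sites. Passing the threshold therefore did not follow the size of the difference. With the minimum of 13 reads no site of the stretch was called by edgeR, nor any in the rest of the genome, and 177 of 198 sites (89.4%) had an unadjusted p under 0.05, compared with 67.0% of all sites. With library sizes taken from chromosome 7 in place of TMM, 48 sites were called, all lower, or 23.8%, compared with 21.6% of all sites in both directions and 13.3% in this one. All these counts rest on the same choice of sites.

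The number of called sites also moved with single libraries. Leaving out 3T3-L1-PRE replicate 1 gave 32 (15.8%, compared with 7.36% of all sites), and leaving out 3T3-L1-PRE replicate 2 gave 0 (0.150% of all sites). Without 3T3-L1-AD replicate 1 it was 4 (1.98%, compared with 13.1% of all sites), of which 1 was lower and 3 were higher in adipocytes, and without 3T3-L1-AD replicate 2 it was 0 (2.00% of all sites). Where no site was called, edgeR gave an unadjusted p under 0.05 at 47 sites with 3T3-L1-PRE replicate 2 left out (23.3%, compared with 17.8% of all sites) and at 179 sites with 3T3-L1-AD replicate 2 left out (88.6%, compared with 74.7%).

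Of the called sites, 37340001 to 37342000 and 43674001 to 43676000 are described. Both were chosen as sites because both preadipocyte libraries listed them, and neither adipocyte library did, so that their difference is no test result. The former is intergenic, 130135 bp from Zfp536, and held 35 and 24 reads in preadipocytes and no listed reads in adipocytes, which is at least 6.14-fold lower on the floor of 3 reads. The latter lies in Ctu1, which encodes a tRNA thiolation enzyme, and held 33 and 36 reads against none listed, at least 6.74-fold lower. Over the whole of Ctu1 with its flanks the states overlapped, with 6.92 and 38.3 reads per 1000000 chromosome 7 reads in preadipocytes and 189.3 and 0 in adipocytes. A DpnII site of each, chosen and marked as above, lies at chr7:37341209-37341288 and, in an intron of Ctu1, at chr7:43674914-43674993. They are shown to place 2 weak preadipocyte contacts, and they were picked by their rank in the fit, which the choice of sites also shaped.
window 37340001: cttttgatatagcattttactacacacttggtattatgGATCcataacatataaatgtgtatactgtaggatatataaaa
window 43674001: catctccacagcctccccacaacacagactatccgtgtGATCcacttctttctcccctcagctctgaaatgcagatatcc

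The 7 windows listed in both adipocyte libraries were 36666001, 38104001, 38126001, 38194001, 41196001, 43632001 and 45116001. At 36666001, near Tshz3, the reads were 0 and 1538 in preadipocytes and 150 and 2 in adipocytes. At 38104001, inside Ccne1, they were 0 and 631 against 395 and 468, and the adipocyte replicates were close to each other. At 41196001, inside Gm5592, they were 0 and 149 against 3421 and 4. At 43632001, near Ceacam18, they were 0 and 1014 against 3585 and 2, and at 45116001, at the far border, 0 and 265 against 75 and 893. 3T3-L1-PRE replicate 2 listed all 7 as well, and 4 of them held 4 reads or fewer in 3T3-L1-AD replicate 2. None passed the edgeR test, and the lowest FDR among them was 0.198.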

How the data were processed

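Libraries of 4C-seq from 3T3-L1-PRE and 3T3-L1-AD, 2 of each, were grouped by the state in their titles. A sample of another tissue was not analysed here. The authors demultiplexed reads by the reading primer, trimmed them, mapped them with bowtie2 in pipe4C to mm10 and kept unique fragment ends. Deposited window counts are raw reads that the authors summed in r3Cseq over 2000 bp. A signal in the RPMs column, deposited by the authors after r3Cseq normalization, was not used for comparisons, since it is not proportional to reads. The deposited p-value and q-value were computed by the authors for each library alone.

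Listed windows held 9453610 and 16888137 reads for preadipocytes and 6535263 and 10173531 for adipocytes. At most 12 and 10 reads could lie in an unlisted window of the preadipocyte replicates, and 1 in the adipocyte ones. Genes were taken from the GENCODE annotation and fragment ends from the genome sequence of the same build.

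Single values were compared with exact permutation tests. Bins (library size: chromosome 7 reads less those of the top window) and sites (TMM) were compared with edgeR 4.0.16, and with DESeq2 1.42.0 as an alternative, with Benjamini-Hochberg adjustment and an FDR of 0.01. The edgeR test was run on simulated data, where recovery of changed features was required only at a dispersion far below the fitted ones. The fitted dispersions were 5.75 for bins and 1.93 for sites. This check therefore does not show how many changes would be found in these data. Other minimums of reads, equal lists, other bases for shares, other bin sizes, filters and normalizations, a replicate block and each library left out in turn were tried. The comparisons of gene classes by distance were added after the data were seen. Named were the 3 bins with the most windows in each state, bins without a window, the highest window by reads of each library, windows listed in all libraries, the 2 called sites with the smallest p, and lists of genes, of which 2 genes are not reported here. Neighbouring bins, the windows around 1600014C10Rik and the 7 windows listed in both 3T3-L1-AD libraries were chosen for naming with their values in view. The members and lists were chosen with earlier results of these data known. Software was R 4.3.3, scipy 1.17.1, pandas 2.3.3, numpy 2.4.6 and Python 3.11.15.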

Additional observations from a re-analysis of the deposited data

How the results depend on the processing

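The log2 ratio of listed windows between the states was 0.0186 with equal lists of chromosome 7 windows, which fix the length of each list beforehand. It was -3.38 to -1.58 when each library was left out in turn. The log2 ratio of the shares of cis reads was 0.0653 on the reads over 1 Mb from the viewpoint, -1.52 without the 10 windows with the most reads, and -1.06 to -0.33 with a library left out. The telomeric over centromeric ratio was 0.0360 in reads, -0.137 per unique fragment end and -0.0455 without 3T3-L1-AD replicate 1. The gene-dense over gene-free ratio was 0.40 with the minimum of 13 reads, 0.67 per window, -0.0710 in reads, 1.45 beyond 5 Mb, and -0.22 for bins beyond 8 Mb against 1 to 3 Mb, the last 2 being added after the data were seen. Shared windows in 3T3-L1-PRE were 112 with a minimum of 100 reads and 9 with equal lists. In 3T3-L1-AD they were 3 with the minimum of 13 reads, 2 with 100 reads and 3 with equal lists. DESeq2 called 15 bins. Called sites were 178 with DESeq2, 48 with the cis library size, 0 with the minimum of 13 reads, and 0 to 32 with a library left out. With a lone library left in a state, edgeR assumes that it varies like the other state. The cause of these changes was not tested. In all, 42 alternative values, some of those above among them, kept their direction and moved by less than the spread between replicates or, for counts, by no more than 1.5 times. In a design of 2 libraries against 2, whose permutation tests cannot pass a threshold of 0.05, this says nothing of stability. Fits with a replicate block called 0 bins and 0 sites of the stretch (8 sites in the genome). Deviations of replicates with the same number had a correlation of 0.02 over 3329 bins. With bins this variable, the value does not tell whether libraries with the same number were processed together. Many adipocyte bins rest on a single window, which limits their precision.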
